A study of Homo sapiens with 12 samples.

Results

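Of the best known target genes of the p53 tumour suppressor, 9 (CDKN1A, MDM2, BAX, BBC3, FAS, SESN1, GDF15, ZMAT3 and RRM2B) were followed in a human neuroendocrine tumour line grown with and without fibroblasts. The 9 genes were taken by symbol from a table of 54261 genes. Of the 9, 8 passed a filter of at least 1 FPKM (read counts scaled by gene length and by library depth) in at least 3 libraries, and FAS did not. The groups were BON-1 cells alone and BON-1 cells sorted by flow cytometry out of co-culture with CAFs, at BON-1:CAF ratios 10:2, 10:4 and 10:6. Each had 3 libraries of polyA RNA. BON-1 is an established line from a human pancreatic neuroendocrine tumour, and CAFs usually stands for cancer-associated fibroblasts. The labels give neither the source of the CAFs, the time in co-culture nor the purity of the sort, and do not say whether the cells grown alone were also sorted. They do not say either that the 3 libraries of a group came from separate cultures, so p-values measure the spread between these libraries, which may be technical.

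p53 is a transcription factor that is kept at a low level by MDM2, a ubiquitin ligase that marks it for degradation and that is itself a p53 target. When DNA damage or other stress frees p53 from MDM2, it binds paired decamers in DNA and switches on genes that halt the cell cycle, repair DNA, adjust metabolism or start cell death.

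Between 11703624 and 21882537 reads per library were assigned to genes, with the BON-1 alone libraries between 12918760 and 21882537 and the co-culture libraries between 11703624 and 15327524. Of 25 fibroblast markers, 19 were tested and 17 were higher at 10:6 than in BON-1 alone, with none lower, beside 29.7% of all tested genes higher and 18.3% lower. Of the 19, COL5A1, COL5A2, PDGFRB and THY1 reached 1 FPKM in co-culture libraries only, so they were tested only because they were high there. All 25 markers summed to 2415 to 2496 FPKM in BON-1 alone, 2294 to 2373 at 10:2, 2396 to 2645 at 10:4 and 2589 to 2878 at 10:6. S100A4 made up most of this and averaged 2281, 2117, 2200 and 2315 FPKM in that order. With S100A4 and VIM left out, since these were abundant in BON-1 alone, the other 23 markers summed to 90.2 to 93.3 FPKM in BON-1 alone, 130.6 to 132.6 FPKM at 10:2, 223.6 to 229.9 FPKM at 10:4 and 314.3 to 317.6 FPKM at 10:6. FAP, DCN, LUM and POSTN averaged under 1 FPKM in every group, and PDPN was listed at 0 in every co-culture library. The share of fibroblast RNA in the p53 target differences was not tested, and in bulk samples fewer cells of a type cannot be told apart from less RNA per cell. Of 18 neuroendocrine and epithelial markers of BON-1, 15 were tested, of which 7 were higher and 7 lower at 10:6, and their sum stayed between 6730 and 7074 FPKM in all 12 libraries.

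The p53 targets spanned a wide range of levels in BON-1 alone. GDF15, BAX and CDKN1A were abundant, at 482.6 ± 6.21, 100.3 ± 0.316 and 41.1 ± 1.48 FPKM (mean ± SD, n = 3), and exceeded 98.9%, 94.3% and 85.7% of the 13312 tested genes. BBC3 at 4.44 ± 0.735 FPKM and MDM2 at 2.39 ± 0.191 FPKM exceeded 40.8% and 26.5% of them. SESN1 at 1.28 ± 0.110 FPKM, RRM2B at 1.06 ± 0.104 FPKM and ZMAT3 at 0.755 ± 0.0630 FPKM were near the filter, and FAS was far below it. In this order of levels the BON-1 alone libraries of SESN1 and RRM2B overlapped narrowly, and those of the other neighbours did not.

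**Figure D1:**
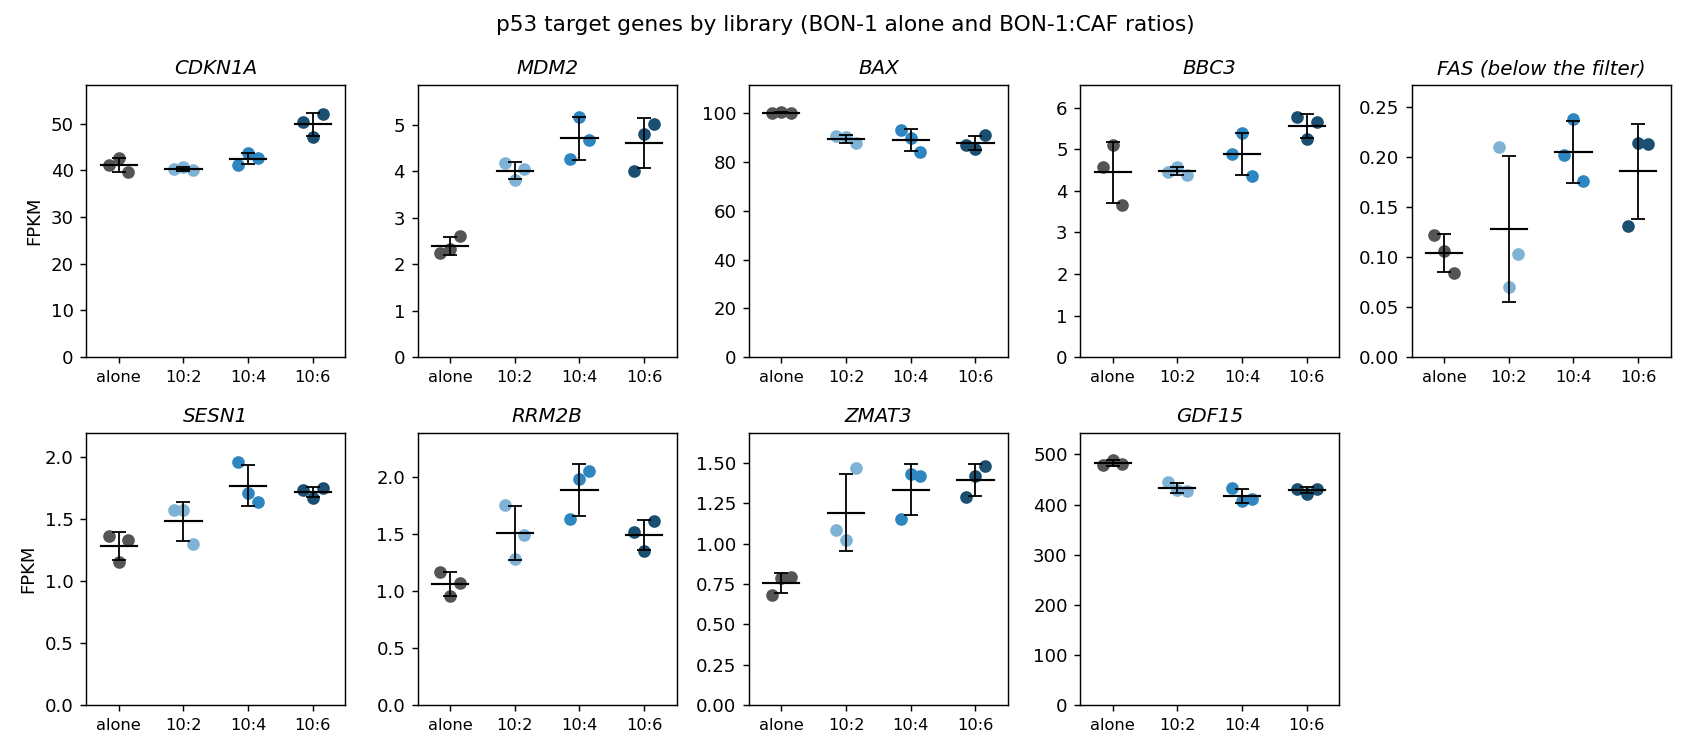
FPKM of the 9 p53 target genes in each of the 12 libraries, for BON-1 alone and the 3 co-cultures. Points are libraries, horizontal lines are group means and bars are 1 SD (n = 3). The 9 co-culture libraries of MDM2 sit between 3.81 and 5.18 FPKM, all above BON-1 alone, whereas CDKN1A stands apart at 10:6 only.

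Set against BON-1 alone, the targets moved in both directions. MDM2 rose in each co-culture and by the largest factor of the 8 tested targets, to 1.68, 1.97 and 1.93 times its level in BON-1 alone at 10:2, 10:4 and 10:6. ZMAT3 and RRM2B also rose at all 3 ratios, SESN1 at 10:4 and 10:6, and CDKN1A and BBC3 at 10:6. The abundant targets BAX and GDF15 fell at all 3 ratios, to between 0.864 and 0.897 of the level in BON-1 alone.

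A gene was called when limma gave an adjusted p under 0.05 on log2(FPKM + 1), a scale that understates the change of low genes. At 10:2, 3 targets were higher and 2 lower, where 19.9% of all tested genes were called higher and 7.46% lower. At 10:4, 4 were higher and 2 lower, against 27.3% and 18.1% of all genes, and at 10:6, 6 were higher and 2 lower, against 29.7% and 18.3%. Calls in either direction covered 27.4%, 45.4% and 48% of all tested genes at 10:2, 10:4 and 10:6, so a call by itself was common among the tested genes. The libraries of the compared groups did not overlap for the same numbers of the 8 tested targets, 3 higher and 2 lower at 10:2 (27.1% and 18.3% of all genes), 4 and 2 at 10:4 (30.8% and 24.3%) and 6 and 2 at 10:6 (33.8% and 24.5%). With a fold of at least 1.5 required on the log scale, no target was called at 10:2 and MDM2 alone at 10:4 and 10:6, beside 1.66%, 7.47% and 6.14% of all genes. ZMAT3 passed the filter only through the co-cultures, where all 9 libraries reached 1 FPKM and none did in BON-1 alone. It is among the targets counted as higher at each ratio. The 3 comparisons share the BON-1 alone libraries, so they are not independent of each other.

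**Figure D2:**
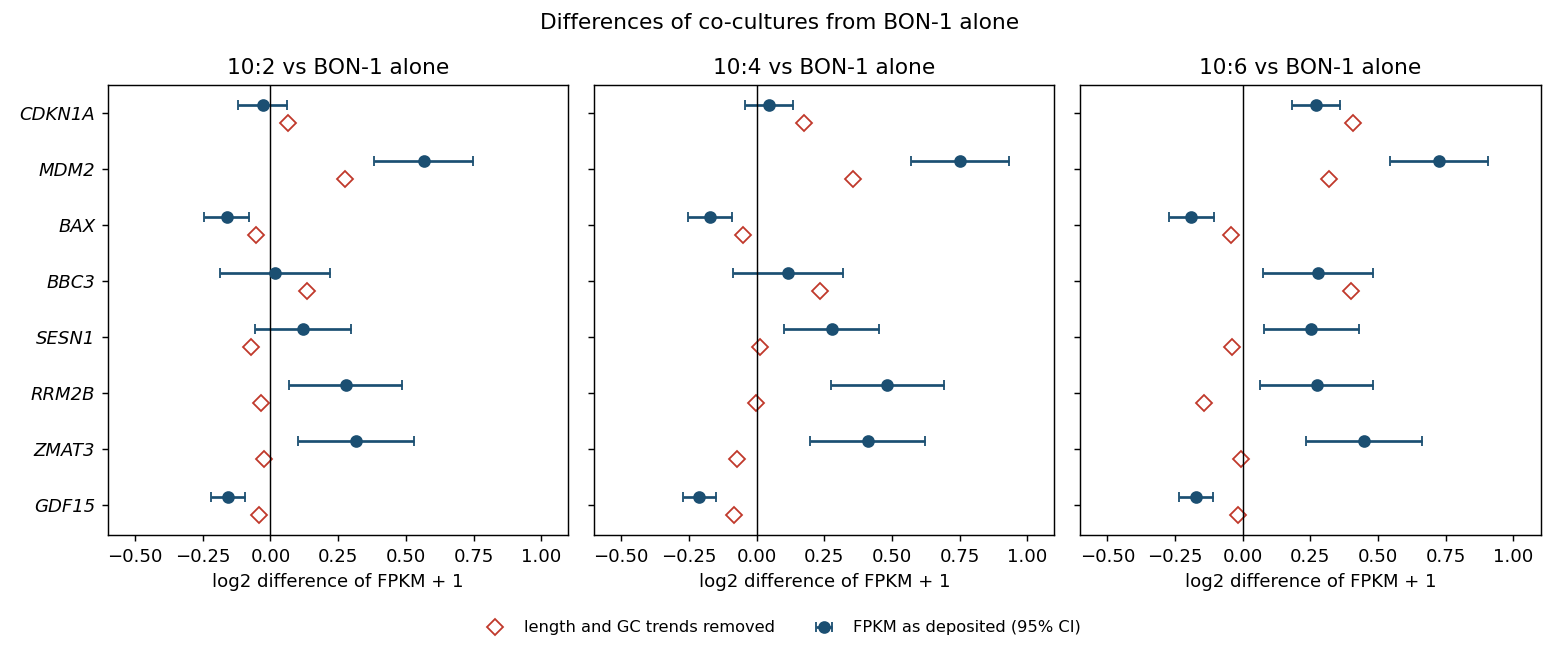
Log2 differences of FPKM + 1 of the 8 tested p53 targets in co-culture at 10:2, 10:4 and 10:6 from BON-1 alone. Filled circles with bars are the deposited values with 95% confidence intervals, and open diamonds are the differences after trends on gene length and GC content were removed from each library. MDM2 lies to the right of 0 in every panel on both measures, while the differences of ZMAT3, RRM2B and SESN1 drop to near or below 0 once the trends are removed.

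Differences from BON-1 alone ran with the GC content of the transcript over all genes. The targets divided along the same line, except that the GC-rich CDKN1A and BBC3 were not called lower and rose at 10:6. Spearman's rho of GC content with the log2 difference was −0.679 at 10:2, −0.717 at 10:4 and −0.721 at 10:6 across 12094 genes, which are not independent replicates. RRM2B (36.4% GC), ZMAT3 (39.5%), MDM2 (41.9%) and SESN1 (43.4%) have GC-poor transcripts, and these were the targets that rose in more than 1 co-culture. CDKN1A (58.1%), BAX (58.9%), GDF15 (62.9%) and BBC3 (69.7%) have GC-rich transcripts, a class in which falls were common. At 10:6, 78.0% of the 2419 genes with at most 41.6% GC, which include RRM2B and ZMAT3, were called higher, and 59.0% of the 2420 genes up to 46.8% GC, which include MDM2 and SESN1. Of the 2418 genes with 52.7% to 58.9% GC, which include CDKN1A and BAX, 2.61% were called higher and 36.8% lower at 10:6. Of the 2419 genes of highest GC content, which include BBC3 and GDF15, 1.36% were called higher and 44.1% lower.

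When trends on gene length and GC content were removed from each library, 3 targets were still called at 10:6, all higher: MDM2, CDKN1A and BBC3. Over all 12094 genes with both properties, 25.7% were then called at 10:6, with 11.6% higher and 14.1% lower. At 10:4 MDM2 and CDKN1A were called higher and GDF15 lower, beside 23.1% of all genes, with 10.6% higher and 12.5% lower. At 10:2 MDM2 alone was called, beside 11.6% of all genes, with 6.05% higher and 5.52% lower. Where each library's mean was kept in the removal, MDM2 was called at 10:2, MDM2, CDKN1A and BBC3 at 10:4, and these 3 and GDF15 at 10:6, beside 14.3%, 26.3% and 28.4% of all genes. All were called higher, which for GDF15 is the reverse of its call on the deposited values. The rises of ZMAT3, RRM2B and SESN1 and the falls of BAX were no longer called at any ratio. What made the values move with GC content was not tested.

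**Figure D3:**
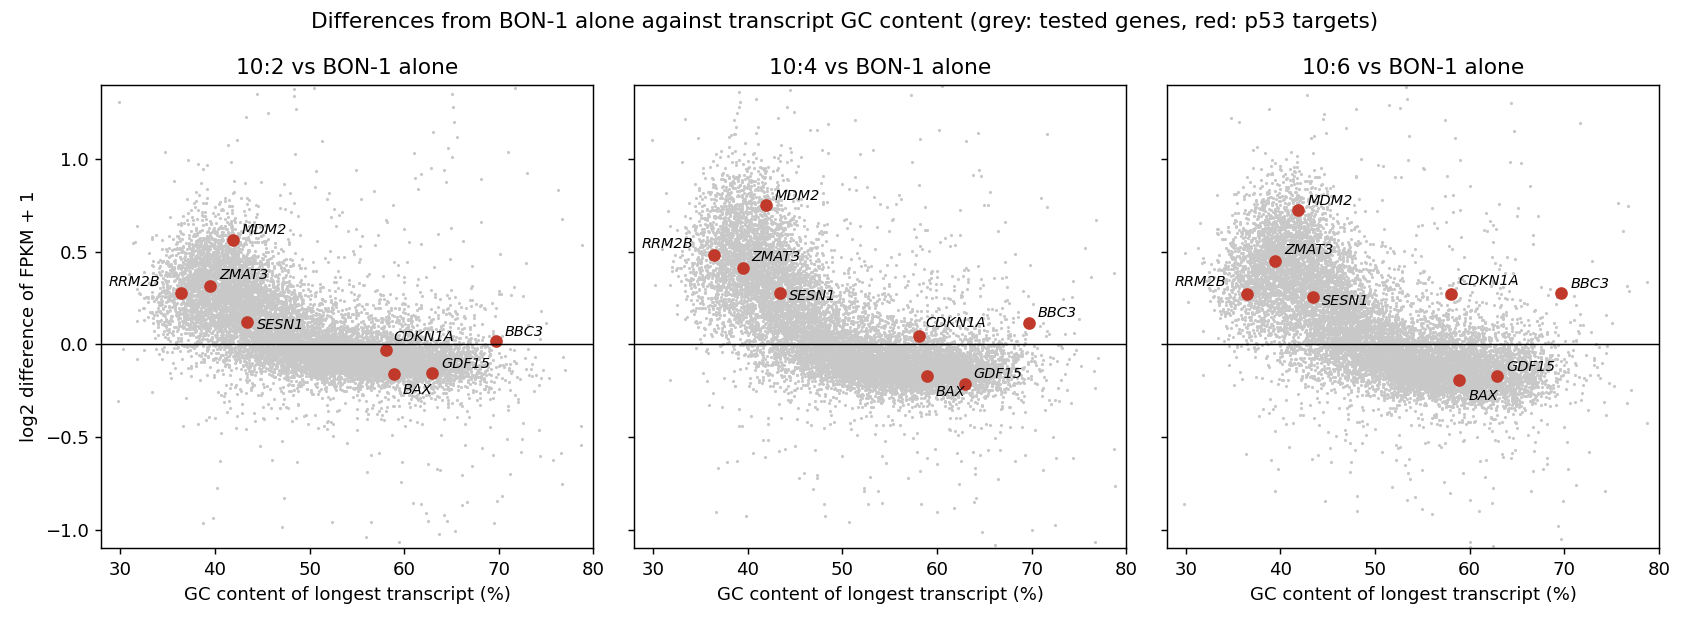
Log2 difference of FPKM + 1 from BON-1 alone against the GC content (%) of the longest transcript at 10:2, 10:4 and 10:6. Grey points are tested genes and red points the 8 tested p53 targets; 21, 36 and 36 of 12094 genes lie outside the axes. RRM2B, ZMAT3, MDM2 and SESN1 sit in the raised GC-poor part of the cloud and BAX and GDF15 in its lowered GC-rich part. At 10:6 CDKN1A and BBC3 lie toward the upper side of the cloud at their GC content.

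MDM2 (Entrez gene 4193, chromosome 12, 68808172 to 68850686 on the plus strand, GRCh38.p14), the ubiquitin ligase of the p53 feedback loop, had 2.24, 2.32 and 2.60 FPKM in BON-1 alone, 4.17, 3.81 and 4.05 FPKM at 10:2, 4.27, 5.18 and 4.67 FPKM at 10:4 and 4.01, 4.81 and 5.03 FPKM at 10:6. No co-culture library overlapped with BON-1 alone, and the 3 co-culture groups lay close together. The log2 difference from BON-1 alone was 0.57 ± 0.083 (SE) at 10:2, 0.75 ± 0.083 at 10:4 and 0.73 ± 0.083 at 10:6, with limma adjusted p of 0.000467, 2.62e-05 and 3.19e-05. With the length and GC trends removed these were 0.27, 0.36 and 0.32, and each was still called (adjusted p = 0.0190, 0.00213 and 0.00381). Between co-cultures MDM2 was not called: the difference of 10:4 from 10:2 was 0.19 (95% confidence interval 0.0043 to 0.37, adjusted p = 0.221). The libraries held 252 to 552 reads of MDM2. MDM4, the partner of MDM2 in restraining p53, averaged 1.05 FPKM at 10:6 and 0.821 FPKM in BON-1 alone and was not called (adjusted p = 0.103).

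p53 induces MDM2 from a promoter in its first intron. The RefSeq promoter table (GRCh38.p14) held 16 windows of 250 bases upstream of annotated starts for 8 of the 9 targets, and these were searched for the p53 consensus. A full site was defined as 2 adjacent decamers of the p53 consensus with at most 2 of 20 bases off, and the consensus reads the same on both strands. Full sites were found in windows of MDM2 and FAS, beside 0.491% of 22199 protein-coding windows, and an exact single decamer in windows of SESN1 and FAS, beside 5.28%. For MDM2 both windows at the internal start held the site and both at the upstream start did not. The stretches are shown because they are the stretches of the targets' promoters in which the consensus was found; capitals mark the stretch that matched, in which the MDM2 and FAS sites each have 2 bases off the consensus, and a match is not evidence of binding here.
MDM2, chr12:68808867-68808986, plus strand: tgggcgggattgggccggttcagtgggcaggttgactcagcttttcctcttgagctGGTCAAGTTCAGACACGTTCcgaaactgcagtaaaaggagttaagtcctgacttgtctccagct
SESN1, chr6:109008989-109009108, minus strand: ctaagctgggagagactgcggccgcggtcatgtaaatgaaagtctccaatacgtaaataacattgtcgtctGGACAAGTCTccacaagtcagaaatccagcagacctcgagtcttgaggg
FAS, chr10:88991309-88991328, plus strand: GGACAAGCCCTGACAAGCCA

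The MDM2 and SESN1 stretches lie outside the annotated exons of these genes, whereas all 20 bases of the FAS stretch lie inside annotated exons of FAS. The full sites of MDM2 and FAS begin 94 and 122 bases before a RefSeq start. Of the 3 genes with a match, MDM2 rose in all co-cultures and SESN1 in 2 of them on the deposited values. FAS was too low to test. Rises were not confined to genes with a match. ZMAT3, with no match in its windows, and RRM2B, which had no window, also rose in all co-cultures on the deposited values. On these values CDKN1A and BBC3, without a match, rose only at the highest share of CAFs. BAX and GDF15 had no match and fell in all co-cultures. Sites outside the windows were not searched for, and a link between a match and a rise was not tested.

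CDKN1A (1026, chromosome 6, 36676463 to 36687332, plus strand) encodes p21, which arrests the cell cycle by inhibiting cyclin-dependent kinases. It had 41.2, 42.6 and 39.6 FPKM in BON-1 alone, 40.2, 40.6 and 40.0 FPKM at 10:2, 41.2, 43.6 and 42.7 FPKM at 10:4 and 50.4, 47.1 and 52.0 FPKM at 10:6. The 10:6 libraries stood above all 9 others. The 10:4 libraries lay above those of 10:2, by a log2 difference of 0.075 (limma adjusted p = 0.318), and both groups overlapped with BON-1 alone. At 10:6 CDKN1A rose by 0.27 ± 0.041 over BON-1 alone (95% confidence interval 0.18 to 0.36, limma adjusted p = 0.00024), whereas the difference was −0.029 at 10:2 (adjusted p = 0.635) and 0.046 at 10:4 (adjusted p = 0.385). With the trends removed it rose by 0.41 at 10:6 and by 0.17 at 10:4 (adjusted p = 3.13e-05 and 0.00865).

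CDKN1A was also the one target called between co-cultures. At 10:6 it was higher than at 10:2 by 0.30 ± 0.041 (adjusted p = 0.00297) and higher than at 10:4 by 0.23 ± 0.041 (adjusted p = 0.0475). Of all tested genes, 6.97% were called at 10:6 against 10:2, 4.52% higher and 2.45% lower (602 and 326 genes, and 458 and 482 after median-of-ratios rescaling), and 0.331% at 10:6 against 10:4, 0.0977% higher and 0.233% lower. With 10:4 set against 10:2 none of the 8 tested targets was called by limma, where 2.88% of all genes were; at an unadjusted p under 0.05 only MDM2 passed, at 0.0456, and limma-voom on reads called none. The call of CDKN1A between 10:6 and 10:4 was lost without any 1 of the 10:4 libraries (adjusted p = 0.149, 0.103 and 0.124) and without replicate 1 or 3 of 10:6 (0.172 and 0.155). It was lost too after median-of-ratios rescaling, with a pseudocount of 0.1, with no filter, with the replicate block and with the 2 groups fitted alone (0.0503 to 0.228), and was kept with the trends removed (0.0251) and by limma-voom on reads (0.00380).

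BAX and BBC3 act in mitochondrial cell death. BAX (581, chromosome 19, 48954875 to 48961798, plus strand) forms pores in the outer mitochondrial membrane, and had 100.2, 100.6 and 99.998 FPKM in BON-1 alone, 90.6, 90.3 and 87.7 FPKM at 10:2, 93.1, 89.7 and 84.0 FPKM at 10:4 and 86.8, 85.4 and 91.1 FPKM at 10:6. Every co-culture library was below the 3 libraries of BON-1 alone. BAX fell by 0.16 ± 0.038 at 10:2, by 0.17 ± 0.038 at 10:4 and by 0.19 ± 0.038 at 10:6 on the log2 scale (limma adjusted p = 0.00885, 0.00328 and 0.00155). With the trends removed the differences were −0.054, −0.049 and −0.042 and none was called (adjusted p = 0.352, 0.337 and 0.398), and they turned to 0.012, 0.042 and 0.053 where each library's mean was kept in that removal.

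BBC3 (27113, chromosome 19, 47220824 to 47232860, minus strand) encodes PUMA, a BH3-only protein that frees BAX from its inhibitors. It had 4.57, 5.11 and 3.65 FPKM in BON-1 alone, 4.45, 4.58 and 4.39 FPKM at 10:2, 4.89, 5.38 and 4.37 FPKM at 10:4 and 5.78, 5.24 and 5.66 FPKM at 10:6. The 10:6 libraries lay above BON-1 alone by a narrow margin, with replicate 3 of BON-1 alone lowest of all 12. The rise at 10:6 was 0.28 ± 0.093 (adjusted p = 0.0274) and 0.40 with the trends removed (adjusted p = 0.00557). It was 0.17 without replicate 3 of BON-1 alone (adjusted p = 0.109) and was not called either without replicate 1 or 3 of 10:6 (0.0759 and 0.0724), with no filter (0.0729) or with the 2 groups fitted alone (0.0545). The F test over the 4 groups did not call BBC3 (adjusted p = 0.0820), whereas it called the other 7 tested targets and 44.4% of all genes.

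FAS (355, chromosome 10, 88964050 to 89017059, plus strand), a death receptor at the cell surface, was close to the detection limit. Its FPKM was 0.122, 0.106 and 0.084 in BON-1 alone, 0.209, 0.071 and 0.103 at 10:2, 0.201, 0.238 and 0.176 at 10:4 and 0.131, 0.213 and 0.213 at 10:6, from 7 to 24 reads per library. The reads of a group summed to 0.776 RPM (reads scaled to a common library depth) in BON-1 alone (exact Poisson 95% interval 0.554 to 1.06), 0.910 RPM at 10:2 (0.634 to 1.27), 1.501 RPM at 10:4 (1.15 to 1.93) and 1.37 RPM at 10:6 (1.05 to 1.77), where the intervals cover counting error only. Tested with no filter, FAS was not called at any ratio (adjusted p = 0.837, 0.105 and 0.195 at 10:2, 10:4 and 10:6). FAS shares 380 exon bases, 8.94% of its annotated exons, with ACTA2 on the opposite strand, and ACTA2 averaged 38.5 FPKM at 10:6 and 5.99 FPKM in BON-1 alone. Whether reads were counted by strand is not given in the sources used here, so reads of the 2 genes in that stretch cannot be told apart.

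SESN1 and RRM2B adjust metabolism and nucleotide supply. SESN1 (27244, chromosome 6, 108984309 to 109094846, minus strand), a sestrin that restrains mTORC1, had 1.36, 1.16 and 1.33 FPKM in BON-1 alone, 1.58, 1.57 and 1.30 FPKM at 10:2, 1.96, 1.71 and 1.64 FPKM at 10:4 and 1.74, 1.67 and 1.75 FPKM at 10:6. The 10:4 and 10:6 libraries lay above BON-1 alone and the 10:2 libraries overlapped with it. SESN1 rose by 0.28 ± 0.080 at 10:4 and 0.25 ± 0.080 at 10:6 (limma adjusted p = 0.0145 and 0.0214), and at 10:2 the difference was 0.12 (adjusted p = 0.290). With the trends removed the differences were 0.011 at 10:4 and −0.041 at 10:6 (adjusted p = 0.943 and 0.751). On the deposited values neither was called without replicate 2 of BON-1 alone (0.0611 and 0.0845), nor 10:4 without its replicate 1 (0.0529) or 10:6 without its replicate 3 (0.0594).

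RRM2B (50484, chromosome 8, 102204501 to 102238961, minus strand) encodes the p53-inducible small subunit of ribonucleotide reductase, which supplies deoxynucleotides for repair and mitochondrial DNA. It had 1.16, 0.954 and 1.07 FPKM in BON-1 alone, 1.75, 1.28 and 1.49 FPKM at 10:2, 1.63, 1.98 and 2.05 FPKM at 10:4 and 1.52, 1.35 and 1.61 FPKM at 10:6. All 9 co-culture libraries were above BON-1 alone, with 10:4 above 10:6. RRM2B rose by 0.28 ± 0.096 at 10:2, 0.48 ± 0.096 at 10:4 and 0.27 ± 0.096 at 10:6 (adjusted p = 0.0499872, 0.00167 and 0.0336), and its difference of −0.21 between 10:6 and 10:4 was not called (adjusted p = 0.375). With the trends removed the differences were −0.034, −0.0013 and −0.14. The calls at 10:2 and 10:6 were each lost when single libraries were left out (adjusted p up to 0.171 at 10:2 without its replicate 1, and up to 0.110 at 10:6 without replicate 2 of BON-1 alone). The call at 10:2 was also lost with the replicate block (0.0657), after median-of-ratios rescaling (0.0503), with no filter (0.111) and with the 2 groups fitted alone (0.0773), and the call at 10:6 with no filter (0.0745).

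ZMAT3 (64393, chromosome 3, 179017223 to 179072513, minus strand) encodes a zinc finger protein that binds RNA and regulates splicing and mRNA stability. It had 0.683, 0.787 and 0.796 FPKM in BON-1 alone, 1.09, 1.03 and 1.47 FPKM at 10:2, 1.15, 1.43 and 1.42 FPKM at 10:4 and 1.29, 1.42 and 1.48 FPKM at 10:6. No co-culture library overlapped with BON-1 alone. The differences were 0.32 ± 0.098, 0.41 ± 0.098 and 0.45 ± 0.098 at 10:2, 10:4 and 10:6 (adjusted p = 0.0326, 0.00516 and 0.00272), and −0.024, −0.072 and −0.0079 with the trends removed. ZMAT3 was tested only because it was high in the co-cultures, so these p-values and the lack of overlap are descriptions. The call at 10:2 was lost without any 1 of the BON-1 alone libraries or replicate 3 of 10:2 (adjusted p = 0.0639 to 0.126), with no filter (0.0664) and with the 2 groups fitted alone (0.0637).

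GDF15 (9518, chromosome 19, 18386158 to 18389176, plus strand) encodes a secreted stress cytokine of the TGF-beta superfamily, and was the most abundant of the 9. It had 478.0, 489.7 and 480.1 FPKM in BON-1 alone, 444.4, 428.1 and 426.1 FPKM at 10:2, 432.6, 406.9 and 410.8 FPKM at 10:4 and 431.7, 421.5 and 431.9 FPKM at 10:6. Every co-culture library was lower than every library of BON-1 alone, and the co-cultures overlapped. GDF15 fell by 0.16 ± 0.028 at 10:2, 0.21 ± 0.028 at 10:4 and 0.17 ± 0.028 at 10:6 (limma adjusted p = 0.00181, 0.00011 and 0.00045). With the trends removed the differences were −0.043, −0.084 and −0.018, of which the one at 10:4 was called (adjusted p = 0.0203). Where each library's mean was kept in that removal they turned to 0.023, 0.0070 and 0.077, and at 10:6 GDF15 was then called higher (adjusted p = 0.0419), so it was called in both directions.

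Over the 12 libraries the targets formed sets that moved together. MDM2 followed ZMAT3 (Pearson r = 0.934), RRM2B (0.835) and SESN1 (0.772), and ran opposite to GDF15 (−0.935). BAX followed GDF15 (0.907), and CDKN1A followed BBC3 (0.825) more closely than MDM2 (0.437). The coefficients carry the differences between the 4 groups and the GC trend that the libraries share, so they are descriptions.

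Other p53 targets, set out in lists by role, also moved in both directions at 10:6 against BON-1 alone, where 29.7% of all tested genes were higher and 18.3% lower, and 11.6% and 14.1% with the trends removed. In the lists of arrest, death, feedback, family and partner genes, 1, 2, 2, 2 and 1 tested members reached 1 FPKM in co-culture libraries only. Of 12 cell cycle arrest genes, all tested, 7 were higher and 3 lower, with a median log2 difference of 0.17 against 0.019 over all tested genes, and 4 were higher and none lower with the trends removed. PLK2, a polo-like kinase, rose to 121.1 FPKM at 10:6, against 85.3 FPKM in BON-1 alone (0.50 ± 0.029, limma adjusted p = 2.42e-07, and 0.40 with the trends removed). BTG2, an antiproliferative cofactor of mRNA decay, rose to 39.5 FPKM, against 34.7 FPKM in BON-1 alone (0.18 ± 0.034, adjusted p = 0.00115), and was also higher at 10:6 than at 10:4 by 0.27 and than at 10:2 by 0.28 (adjusted p = 0.00567 and 0.00151). E2F7, a repressor of E2F targets, and FBXW7, a ubiquitin ligase subunit, rose by 0.49 and 0.45, and E2F7 was not called with the trends removed (adjusted p = 0.172).

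Of 20 cell death targets 16 were tested, 6 of them higher and 3 lower, beside the 29.7% and 18.3% of all genes, with a median of −0.031, and 1 was higher and 2 lower with the trends removed. PMAIP1 (NOXA), a BH3-only protein that acts on MCL1, rose to 17.0 FPKM at 10:6, against 10.7 FPKM in BON-1 alone (0.62 ± 0.073, limma adjusted p = 4.01e-05, and 0.25 with the trends removed). CASP8, the caspase that starts death receptor signalling, rose by 0.29 and turned to −0.035 with the trends removed. TRIAP1, an inhibitor of apoptosome assembly, rose by 0.32 and was not called with the trends removed. AEN, an exonuclease of apoptosis, fell by 0.15 and was not called where library means were kept in the removal (−0.069, adjusted p = 0.211). The DNA repair targets had 3 of 7 tested members higher and none lower, of 8 listed, with a median of 0.14. ERCC5, an excision repair nuclease, rose to 3.11 FPKM, against 1.66 FPKM in BON-1 alone (0.63 ± 0.062, adjusted p = 1.13e-05). It was still called with the trends removed (0.31), whereas PCNA, the sliding clamp, rose by 0.22 and was not called with the trends removed unless library means were kept. XPC, a sensor of DNA lesions, was not called (adjusted p = 0.138), and was called higher with library means kept (0.27, adjusted p = 0.0124).

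The metabolism and autophagy targets had 3 of 10 tested members higher and 4 lower, of 14 listed, beside 29.7% and 18.3% of all genes, with a median of −0.091, and 1 higher and 1 lower with the trends removed. DDIT4, an mTORC1 inhibitor that is also a target of ATF4, rose to 119.0 FPKM at 10:6, against 99.9 FPKM in BON-1 alone (0.25 ± 0.050, limma adjusted p = 0.0016). PRKAB1 and PRKAB2, regulatory subunits of AMP-activated kinase, differed by −0.24 and 0.35, both called, and PRKAB2 turned to −0.063 with the trends removed. TIGAR, a regulator of glycolysis, rose by 0.37 and was not called with the trends removed. Of 22 tested feedback and other targets, of 24 listed, 5 were higher and 3 lower with a median of −0.013, and 1 and 5 with the trends removed. Among them PLXNB2, a semaphorin receptor, fell by 0.24, and DUSP5, a phosphatase of ERK, by 0.18 on the deposited values. DUSP5 was at −0.067 and not called with the trends removed (limma adjusted p = 0.0775). Where trends were removed and library means kept, PLXNB2 was at −0.062 and not called (adjusted p = 0.110), and DUSP5 turned to 0.028. SERPINB5, a serpin, reached 1 FPKM only at 10:4 and 10:6, so it was tested only because it was high there; its difference was 0.55, and it was not called with the trends removed. THBS1, a matrix glycoprotein that fibroblasts also make, rose by 0.18 and turned to −0.058 with the trends removed.

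Of 27 members and regulators of the p53 family, 24 were tested, with 10 higher and 3 lower, beside 29.7% and 18.3% of all genes, a median of 0.089, and 4 and 5 with the trends removed. BRD7, a bromodomain cofactor of p53, rose by 0.47 ± 0.052. RPL5, a ribosomal protein that can inhibit MDM2 and has processed pseudogenes that may share its reads, was higher by 0.24 on the deposited values and lower by −0.13 with the trends removed, and was called in both directions. Of 33 partners of the 9 proteins, 29 were tested, with 10 higher and 5 lower, a median of 0.10, and 4 and 1 with the trends removed. RRM1, the large subunit that pairs with RRM2B, rose to 53.5 FPKM at 10:6, against 31.9 FPKM in BON-1 alone (0.72 ± 0.033, limma adjusted p = 4.68e-08). MCL1, an inhibitor of BAX activation, rose to 63.3 FPKM, against 41.3 FPKM in BON-1 alone (0.60 ± 0.043, adjusted p = 1.05e-06), and CDK6, a kinase bound by p21, rose by 0.53. CDK6 was at 0.077 with the trends removed and 0.17 with library means kept, and was called in neither (adjusted p = 0.372 and 0.0518).

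Genes that p53 represses through p21 and the DREAM complex divided, with 6 of 16 higher and 9 lower at 10:6, beside 29.7% and 18.3% of all genes, and a median of −0.14. Once trends were removed 1 was higher and 8 lower, beside 11.6% and 14.1% of all genes. TOP2A, the mitotic topoisomerase, rose to 14.7 FPKM at 10:6, against 6.91 FPKM in BON-1 alone (0.99 ± 0.063, limma adjusted p = 4.73e-07), and was still higher with the trends removed (0.55). PLK1 and MCM2 fell by 0.26 and 0.30 and were still lower with the trends removed, and PLK1 was not called where library means were kept (−0.031, adjusted p = 0.464). CCNA2 rose by 0.38 and was not called with the trends removed unless library means were kept. Targets of ATF4, a stress factor that also induces SESN2, DDIT4 and other genes shared with p53, had 6 of 12 higher and 2 lower, a median of 0.098, and 2 higher and none lower with the trends removed. ASNS, asparagine synthetase, rose by 0.30 and was still called with the trends removed. PSAT1, an enzyme of serine synthesis, and SLC7A11, the cystine transporter, rose by 0.32 and 0.39 on the deposited values. Neither was called with the trends removed, where PSAT1 was at 0.00058 (limma adjusted p = 0.990) and SLC7A11 turned to −0.022.

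**Figure D4:**
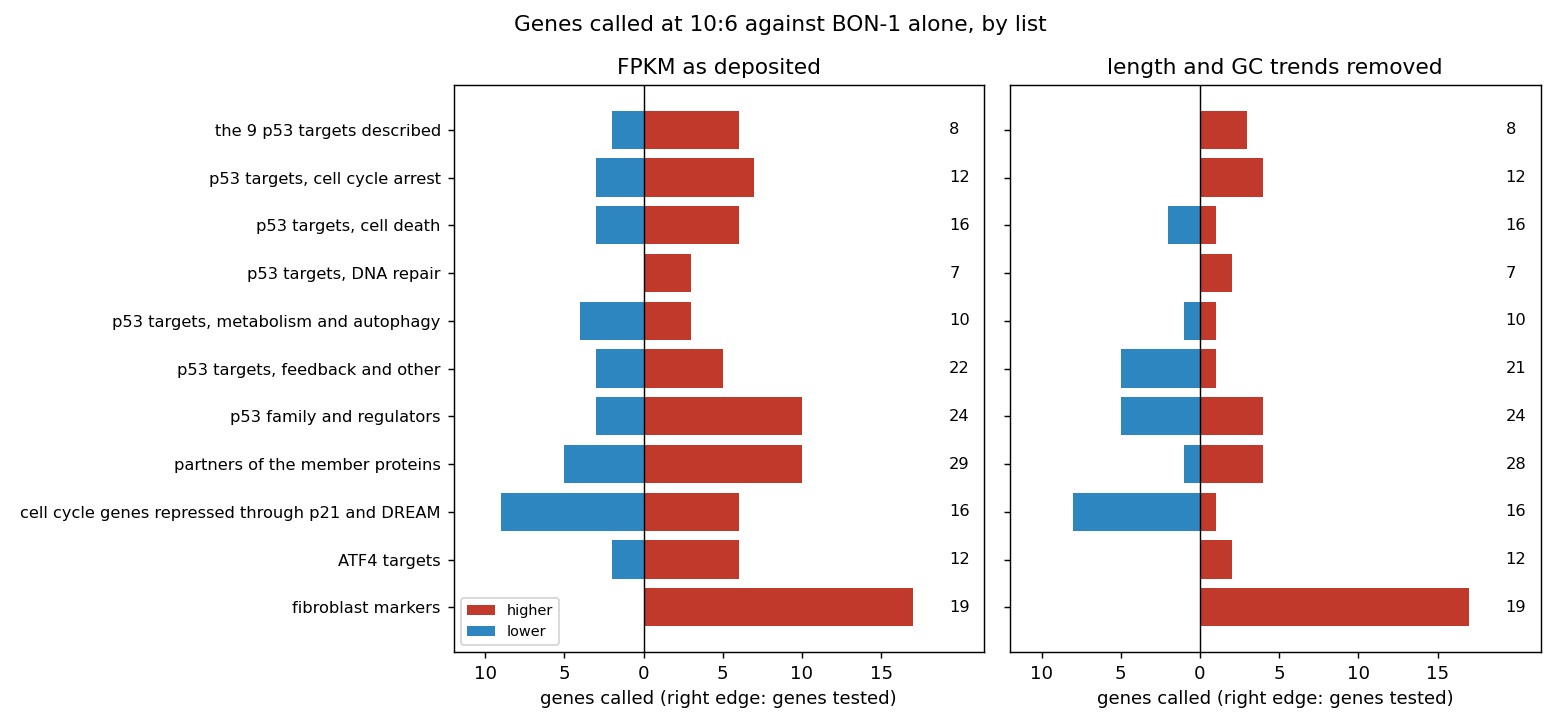
Number of genes called higher (red, to the right of 0) and lower (blue, to the left) at 10:6 against BON-1 alone in the 9 p53 targets and 10 gene lists, on the deposited FPKM values (left panel) and with length and GC trends removed (right panel). Numbers at the right edge are genes tested. The red bars of the 5 p53 target lists are shorter in the right panel, while 17 of 19 fibroblast markers are higher in both.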

How the data were processed

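RNA-seq of 12 BON-1 libraries was read from 1 table of FPKM values that the authors deposited. HISAT2, featureCounts and the build hg38 are named per the submitters' processing notes; versions, settings and strand were not given. The code in each sample's title named its column, and no column was left over.

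The test covered 13312 genes with at least 1 FPKM in at least 3 libraries. With limma 3.58.1 in R 4.3.3, group means of log2(FPKM + 1) were fitted over the 12 libraries together, and variances were moderated along their trend. Benjamini-Hochberg adjustment ran over all tested genes of a comparison, with a threshold of 0.05. The method was checked on simulated data. FPKM values were turned back into whole reads, of which 99.97% of 267349 nonzero values came out whole within 1e-07 reads, and the totals gave the depths; limma-voom on these reads called 6962 genes at 10:6 against BON-1 alone. No 2 libraries of a group agreed within counting noise.

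Trends were removed per library by regressing its deviation from the gene mean on splines with 5 degrees of freedom of GC content (longest GENCODE 29 transcript) and recovered gene length, for 12094 genes (90.9%). Other alternatives changed the pseudocount (0.1), filter, scaling, libraries in the fit, threshold (a fold of 1.5) and replicate block, or left out 1 library at a time. Keeping library means in the trend removal was added after the data were seen.

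The 9 targets and the 11 lists were chosen with earlier results of these data known. Named genes were the 9 and the up to 4 genes of each other list that had the lowest p (10:6 against BON-1 alone), and for each tested target the 2 genes of highest correlation. Some genes that this rule names are not reported here. COP1 and CASTOR1 are listed as RFWD2 and GATSL3. Scripts ran in Python 3.11.15 with numpy 2.4.6 and pandas 2.3.3, and figures in matplotlib 3.10.9. Positions and promoter sequences are from RefSeq, GRCh38.p14.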

Additional observations from a re-analysis of the deposited data

How the results depend on the processing

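Removing trends on length and GC content moved the count of called targets to 1, 3 and 3 at 10:2, 10:4 and 10:6 against BON-1 alone, and to 1, 3 and 4 with library means kept. Over all genes the counts were 1400, 2793 and 3105 with the trends removed and 1735, 3185 and 3430 with library means kept, against 3648, 6046 and 6394 on the deposited values. With the trends removed the sign turned for ZMAT3 (−0.0236, −0.0719 and −0.00792 at 10:2, 10:4 and 10:6), RRM2B (−0.0336, −0.00132 and −0.141), and at 10:6 for SESN1 (−0.0409), CASP8 (−0.0347), PRKAB2 (−0.0634), THBS1 (−0.0582), RPL5 (−0.129) and SLC7A11 (−0.0215). With library means kept it turned for BAX (0.0115, 0.0421 and 0.0531), GDF15 (0.0229, 0.00702 and 0.0772), and at 10:6 for RRM2B (−0.0458), DUSP5 (0.0285) and RPL5 (−0.0337). These were values called on the deposited values. Signs of uncalled values turned too with the trends removed, as for SESN1 at 10:2 (0.12 to −0.073) and CDKN1A at 10:2 (−0.029 to 0.066). The cause was not tested. A threshold of 1.5-fold left 0, 1 and 1 targets against BON-1 alone, 0 at 10:6 against 10:4 and 0 at 10:6 against 10:2. At 10:2 the count was 3 without the filter and 3 with the compared groups fitted alone. The 1 call at 10:6 against 10:4 went to 0 at a pseudocount of 0.1, without the filter, after median-of-ratios rescaling and with the compared groups alone. Leaving out each library gave 3 to 5 targets at 10:2, 5 to 6 at 10:4, 5 to 8 at 10:6, 0 to 0 at 10:4 against 10:2, 0 to 1 at 10:6 against 10:4 and 1 to 1 at 10:6 against 10:2. Between ratios the count over all genes was 384 at 10:4 against 10:2, 44 at 10:6 against 10:4 and 928 at 10:6 against 10:2, and ranged over the alternatives from 27 to 1045, 6 to 276 and 60 to 1541.

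Libraries with the same replicate number did not deviate together (r from −0.0427 to 0.0458). The labels do not say whether such libraries were handled together, and these correlations cannot exclude it. With the replicate number as a block the counts of targets were 4 (RRM2B lost), 6 and 8 against BON-1 alone, 0 at 10:6 against 10:4 and 1 at 10:6 against 10:2, and with trend removal 1, 3, 3, 0 and 1, with the same turned signs as trend removal alone. Values of single targets were scored by side of the threshold and, where called on the deposited values, by direction. With a library left out 263 of 288 were kept, and 373 of 432 under other alternatives. Uncalled values could change sign and still count as kept. Depth limits FAS most, at 7 to 24 reads a library, and SESN1 next, at 55 to 89. No table of protein sequences was used here.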

Other observations

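Ratios between the FPKM of partner genes were computed per library as descriptions. MDM2 over MDM4, which act together on p53, was 2.91 ± 0.0686 in BON-1 alone, 3.87 ± 0.316 at 10:2, 4.31 ± 0.550 at 10:4 and 4.39 ± 0.523 at 10:6 (mean ± SD, n = 3), and no co-culture library overlapped with BON-1 alone. BAX over MCL1, a pore former over an inhibitor of its activation, was 2.43 ± 0.0509, 1.65 ± 0.0528, 1.52 ± 0.148 and 1.39 ± 0.0525 in the same order, again without overlap with BON-1 alone. BAX has 58.9% GC and MCL1 45.1%, and the fall of BAX was not called with the trends removed. BAX over BCL2, a further inhibitor, was 67.2 ± 0.591, 50.2 ± 6.53, 59.7 ± 16.1 and 53.8 ± 6.04 in that order, and replicate 1 of 10:4 lay above BON-1 alone. BAX over BCL2L1, another inhibitor, was 1.36 ± 0.0275, 1.28 ± 0.0446, 1.34 ± 0.0827 and 1.27 ± 0.0684. RRM2B stood far below RRM2, the small subunit used in S phase, at ratios of 0.00631 ± 0.000691, 0.00855 ± 0.00121, 0.0106 ± 0.000947 and 0.00800 ± 0.000815. RRM2B has 36.4% GC and RRM2 45.8%, and the rise of RRM2B was not called with the trends removed.

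The genes whose log2 levels over the 12 libraries were most like those of a target were, by Pearson r, IGFBP5 (0.952) and ELF3 (0.935) for CDKN1A, SPPL2A (0.993) and TMEM30A (0.991) for MDM2, and SGK223 and CCDC22 (both 0.941) for BAX. They were NUDCD2 (0.891) and PRSS22 (0.883) for BBC3, GEMIN2 (0.956) and DZIP3 (0.925) for SESN1, and ID3 (0.950) and HNRNPL (0.949) for GDF15. For ZMAT3 they were C5orf22 (0.982) and COG3 (0.975), and for RRM2B PDS5A (0.955). These genes were picked from all tested genes for their likeness, so the coefficients are descriptions only.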
